A study of Mus musculus with 6 samples.

Results

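The transcripts described here encode the proteins that drive mammalian cells through G1, namely the D cyclins Ccnd1, Ccnd2 and Ccnd3, the E cyclins Ccne1 and Ccne2, the kinases Cdk2, Cdk4 and Cdk6, the CDK inhibitor Cdkn1b (p27) and the retinoblastoma protein gene Rb1. They were taken as every non-control probe of the array that carries 1 of these 10 gene names, which gave 15 probes among 55681. The RNA came from the prostate of untreated male FVB/N mice of the Tg 11.5kb-GFP line, 6 days after birth. Cells were sorted as Lin- (negative for Ter119, CD31 and CD45), Sca-1+ and CD49f+, abbreviated LSC, and split by GFP into LSC GFP+ and LSC GFP- cells, with 3 samples of each. In these mice GFP is driven by the 11.5kb promoter of s-SHIP, a transcript of the Inpp5d gene, and this promoter is also active in a subset of vascular smooth muscle cells. The number of animals behind each sample is not given in the sources used here. The comparison asks how transcript levels differ between the GFP+ and GFP- cells of the same gate.

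In G1, D cyclins accumulate in response to growth factors and activate Cdk4 and Cdk6, which phosphorylate Rb. Phosphorylated Rb releases the E2F transcription factors, and E2F switches on cyclin E, replication factors and nucleotide synthesis enzymes. Cyclin E then activates Cdk2, which completes Rb phosphorylation, while p27 binds and restrains the cyclin-Cdk2 complexes. In the growing prostate the same machinery sets how often epithelial progenitors divide, and much of it, p27 and Rb above all, is controlled at the protein level.

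All 6 arrays were on 1 slide. The 75th percentile of the processed signal lay between 399 and 496 fluorescence units, and between 36657 and 42127 probes were well above background on an array. Across the tested probes, arrays correlated with each other at r = 0.961 to 0.985. The basal epithelial markers Trp63, Krt5 and Krt14 and the CD49f gene Itga6 were well above background on all 6 arrays. Ptprc, which encodes CD45, and Pecam1, which encodes CD31, were also called above background on all 6, at -1.54 to -1.39 and at -3.61 to -1.07. Levels are given throughout as log2 signal after subtraction of the array's 75th percentile, so that 0 is that percentile itself, and differences are LSC GFP+ minus LSC GFP-. Because probes hybridise with different efficiency, the level of a probe is compared only with the same probe on other arrays.

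Of the 15 probes, 14 passed the filter on dim signals and were tested, covering 9 of the 10 genes. One probe, that of Ccnd1, passed the unadjusted threshold of 0.05 in limma without the replicate number. This is a share of 7.14%, no higher than the 7.9% of all 36993 tested probes. None passed after Benjamini-Hochberg adjustment over all tested probes, where 0.0027% of them (1 probe) did. The lowest adjusted p of a member in the same limma fit was 0.245. With the replicate number as a block, 6 of the 14 passed the unadjusted threshold, all higher in LSC GFP+ cells. Under that fit 6.74% of all tested probes were called higher, and the lowest adjusted p of a member in limma was 0.135. All 11 tested probes of cyclins and kinases had a positive difference, whereas both Cdkn1b probes and the Rb1 probe had a negative one. These are not independent readings, since Ccnd3, Ccne1, Cdk4 and Cdkn1b have several probes each and all probes share the same arrays. Over all tested probes, 49.4% of differences were positive and their median was -0.0043, against a median of 0.29 over the 14 tested probes. The arrays of both populations did not overlap for 4 of the 14 probes, compared with 12.3% of all tested probes.

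**Figure D1:**
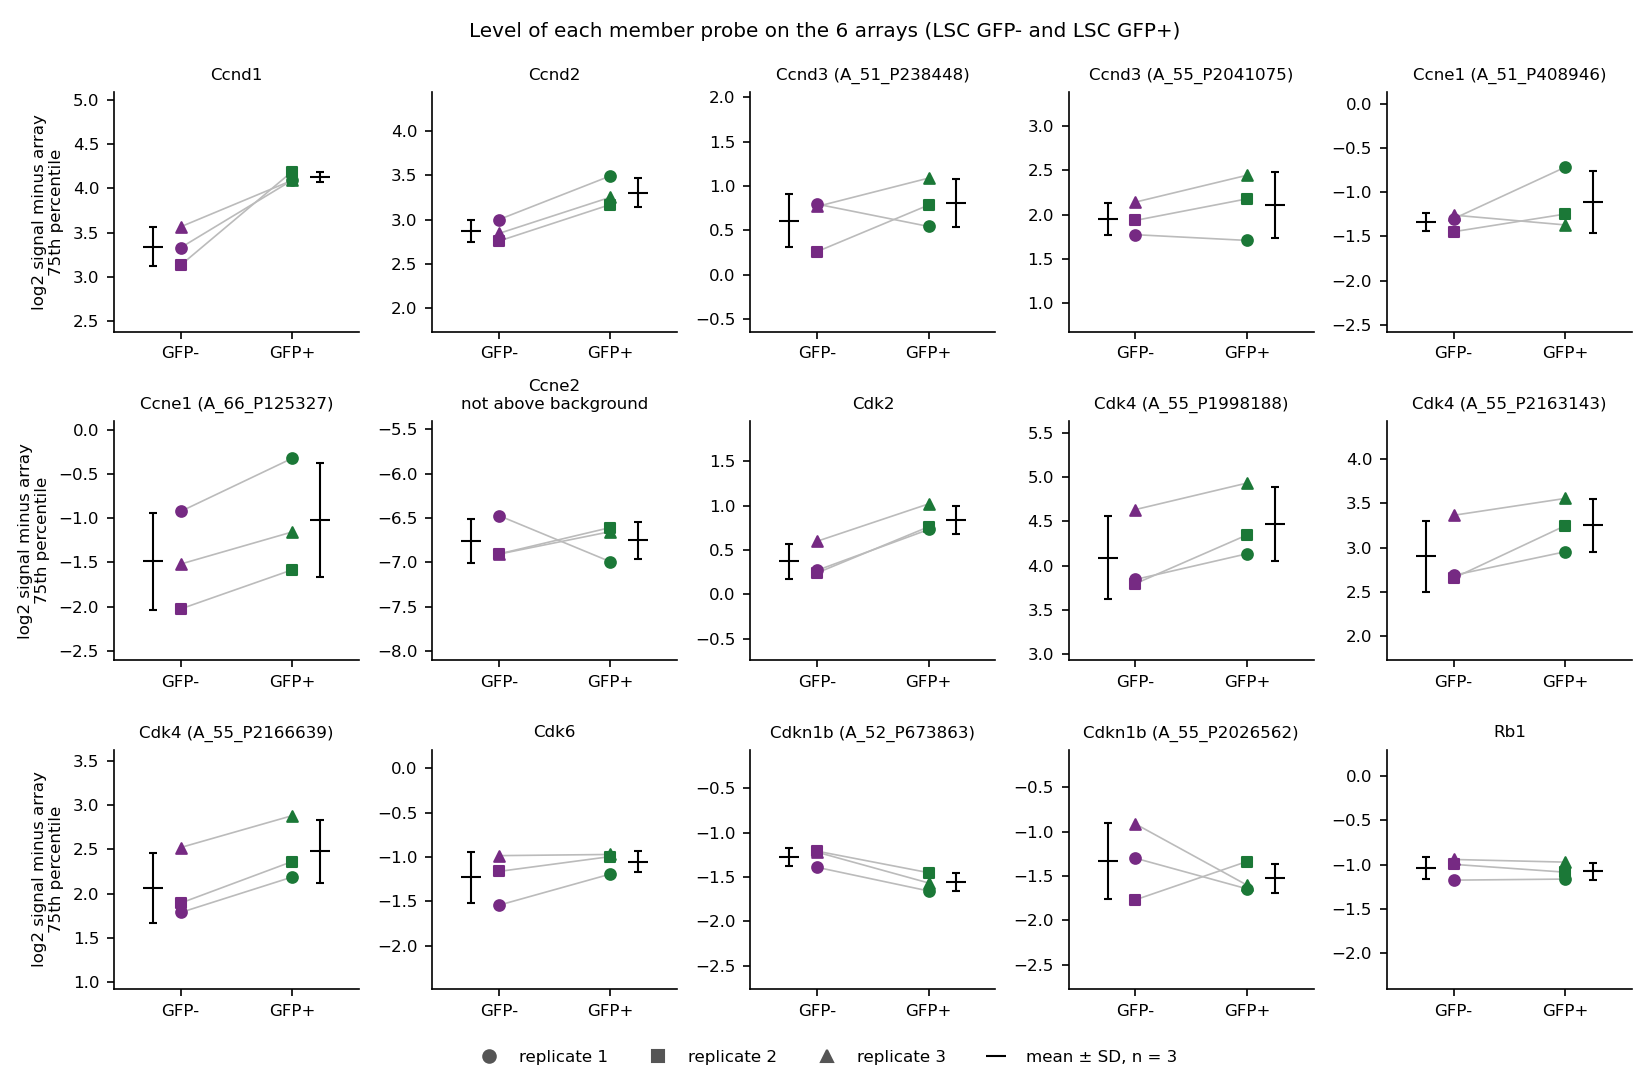
Level of each of the 15 probes (y axis, log2 signal minus the array's 75th percentile, every panel spanning the same range) in LSC GFP- (purple) and LSC GFP+ (green) samples. Marker shapes give the replicate number, grey lines join samples of the same number, and black bars show the mean ± SD of 3 samples. LSC GFP+ samples lie above LSC GFP- samples for Ccnd1, Ccnd2 and Cdk2, while the lines for Cdk4 run parallel from different heights.

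Ccnd1 encodes cyclin D1, the D cyclin most often associated with proliferating epithelium and a known target of growth factor and Wnt signalling. Its probe (A_66_P111562, mm9 chr7:152116202-152116261, minus strand) gave 4.09, 4.19 and 4.09 in LSC GFP+ replicates 1 to 3 and 3.33, 3.13 and 3.57 in LSC GFP- replicates 1 to 3. Every LSC GFP+ sample exceeded every LSC GFP- sample, and the LSC GFP+ values lay close together. The means were 4.12 ± 0.06 (SD, n = 3) and 3.34 ± 0.22 (SD, n = 3). Ccnd1 was thus 1.72-fold higher in LSC GFP+ cells, a log2 difference of 0.78 with a standard error of 0.20 and a 95% interval of 0.33 to 1.24. The limma p was 0.0043 before and 0.245 after adjustment. Between samples of the same replicate number the difference was 0.76, 1.06 and 0.52. With 3 samples against 3, an exact two-sided permutation test of any single probe cannot go below p = 0.1.

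Ccnd2 encodes cyclin D2, which forms the same kinase complexes as cyclin D1. Its single probe (A_52_P53906, mm9 chr6:127098696-127098755, minus strand) has the sequence shown here, read from the array design, because it has no stop codon in 2 of its 3 forward frames while the Ccnd1 probe has stops in all of them.
Ccnd2 probe: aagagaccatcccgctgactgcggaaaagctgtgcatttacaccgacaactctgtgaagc
The probe read 3.49, 3.17 and 3.25 in LSC GFP+ cells and 3.00, 2.76 and 2.84 in LSC GFP- cells. The populations did not overlap, and the difference between samples of the same number was nearly constant, at 0.49, 0.41 and 0.41. Its mean difference was 0.44 ± 0.19 (SE, n = 3 per population), with a 95% interval of -0.01 to 0.89 and a limma p of 0.054. When the replicate number was fitted as a block, the interval was 0.11 to 0.77 and the limma p was 0.0195 (adjusted p = 0.236).

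Ccnd3 encodes cyclin D3, the D cyclin best known from lymphocytes and differentiating tissues. Its 2 probes lie within the same stretch of chromosome 17. The probe at mm9 chr17:47736579-47736638 read 1.71, 2.18 and 2.44 in LSC GFP+ cells and 1.77, 1.94 and 2.14 in LSC GFP- cells. The probe at mm9 chr17:47736267-47736326 read 0.54, 0.79 and 1.09 against 0.80, 0.26 and 0.77. Both pairs of populations overlapped, and in both probes replicate 1 ran against the other two. The differences were 0.16 (95% interval -0.40 to 0.72, limma p of 0.53) and 0.20 (95% interval -0.36 to 0.76, limma p of 0.44). These intervals include the difference measured for Ccnd2 as well as 0.

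Ccne1 encodes cyclin E1, the E2F-induced partner of Cdk2. Its 2 probes both gave a positive mean difference but ordered the samples differently. Probe A_66_P125327 (mm9 chr7:38885574-38885633) read -0.33, -1.58 and -1.16 in LSC GFP+ cells and -0.92, -2.02 and -1.52 in LSC GFP- cells. Here replicate number moved the level more than the population did, and each LSC GFP+ sample exceeded the LSC GFP- sample of its number, by 0.60, 0.44 and 0.36. The limma p was accordingly 0.264 without the replicate number and 0.0182 with it as a block (adjusted p = 0.230), for a difference of 0.47. Probe A_51_P408946, for which the array design gives only mm9 chr7:38882937-38882960, read -0.72, -1.25 and -1.37 against -1.30, -1.45 and -1.26. On this probe replicate 3 had the opposite sign (-0.11), and the difference of 0.22 did not pass with the block (limma p of 0.27) or without it (limma p of 0.358). Without LSC GFP+ replicate 1 the differences of the 2 probes, in the order given, were 0.12 and 0.026.

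Ccne2, which encodes the second E cyclin, was not well above background on any of the 6 arrays and was not tested. Its only probe (mm9 chr4:11131423-11131482) read from -6.99 to -6.61 in LSC GFP+ cells and from -6.91 to -6.47 in LSC GFP- cells. This probe is 85.0% A or T, compared with 45.0% to 70.0% for the other member probes and a median of 56.7% over the array. Of the 27 probes on the array with at least this A and T content, 59.3% were well above background on no array, against 17.8% of all probes. The part of base composition in the Ccne2 reading was not tested.

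Cdk2 encodes the kinase that cyclin E and cyclin A activate at the G1/S transition. Its probe (mm9 chr10:128135658-128135717, minus strand) read 0.73, 0.76 and 1.02 in LSC GFP+ cells and 0.27, 0.24 and 0.60 in LSC GFP- cells. No LSC GFP- sample reached the lowest LSC GFP+ sample. The difference was 0.47 ± 0.20 (SE, n = 3 per population), a 1.38-fold higher mean, with a limma p of 0.0507 (95% interval -0.0018 to 0.94). Differences by replicate number were 0.46, 0.52 and 0.42, and with the block p was 0.0153 in limma (adjusted p = 0.216).

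Cdk4 encodes the main kinase partner of the D cyclins and was the member with the most probes. Probe A_55_P1998188 (mm9 chr10:126504174-126504233) read 4.13, 4.35 and 4.93 in LSC GFP+ cells and 3.84, 3.80 and 4.63 in LSC GFP- cells. Probe A_55_P2166639 (mm9 chr10:126503162-126503221) read 2.19, 2.36 and 2.88 against 1.79, 1.89 and 2.52. Probe A_55_P2163143 (mm9 chr10:126504279-126504338) read 2.95, 3.25 and 3.56 against 2.69, 2.66 and 3.37. On all 3 probes replicate 3 was the highest sample of each population, so the populations overlapped, yet all 9 differences between samples of one number were positive, from 0.19 to 0.59. The mean differences of 0.38, 0.41 and 0.35 had limma p-values of 0.258, 0.184 and 0.233. With the replicate block they were 0.0412, 0.0251 and 0.0674, and the adjusted values were 0.311, 0.260 and 0.377. Leaving out LSC GFP+ replicate 3 lowered the 3 differences to 0.15, 0.21 and 0.20, and leaving out LSC GFP- replicate 3 raised them to 0.65, 0.64 and 0.58. The probe with the largest of the mean differences has no stop codon in any forward frame, and its sequence is given to show what was measured.
Cdk4 probe: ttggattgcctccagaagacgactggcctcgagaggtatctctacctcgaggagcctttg

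**Figure D2:**
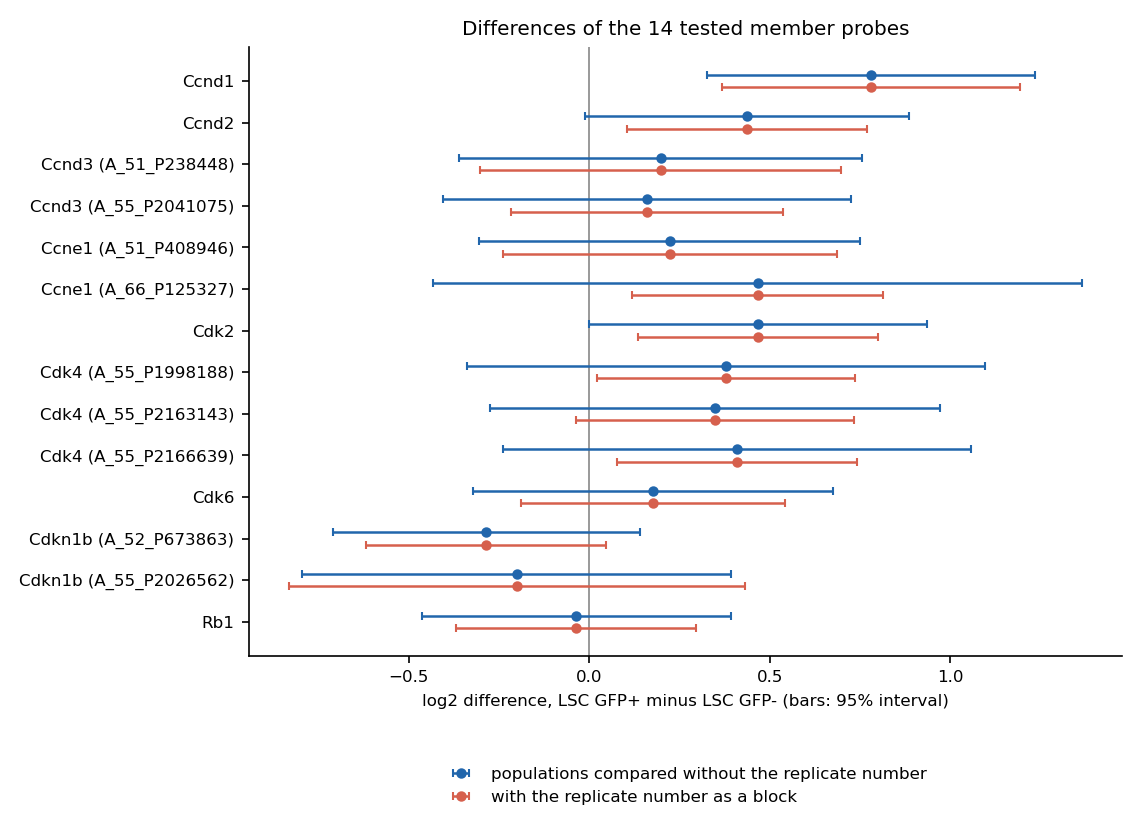
Log2 difference, LSC GFP+ minus LSC GFP- (x axis), of the 14 tested probes with 95% intervals from limma, without (blue) and with (red) a term for replicate number. All 11 cyclin and kinase probes lie to the right of 0, and the intervals that clear 0 number 1 without the block and 6 with it.

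Cdk6 encodes the other kinase that D cyclins activate. Its probe (mm9 chr5:3522106-3522165) read -1.19, -0.996 and -0.97 in LSC GFP+ cells and -1.54, -1.16 and -0.99 in LSC GFP- cells. The populations overlapped, and the difference was 0.18 (95% interval -0.32 to 0.68, limma p of 0.435). The difference within replicate numbers ran from 0.01 to 0.35. It was 0.021 without LSC GFP- replicate 1 and 0.30 without LSC GFP- replicate 3.

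Numbered samples of both populations deviated together across the array, so the replicate number was also fitted as a block. This fit put 6 of the 14 member probes past the unadjusted threshold, all higher in LSC GFP+ cells, against 6.74% of all probes called higher under the same fit. These were the probes of Ccnd1, Ccnd2 and Cdk2, 2 of the 3 of Cdk4 and 1 of the 2 of Ccne1. Probes of one gene read the same transcript and are not independent. The lowest adjusted p among members with the block was 0.135 in limma, that of Ccnd1. At the brightest probe of each gene, 4 of the 9 tested genes passed with the block and 1 without it, while 6.51% and 3.38% of all 25594 genes tested were called higher. Among all tested probes, 3.38% were called higher without the block.

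Cdkn1b encodes p27, whose protein is degraded through SCF-Skp2 as cells enter S phase. Its probe at mm9 chr6:134873606-134873665 read -1.66, -1.45 and -1.57 in LSC GFP+ cells and -1.39, -1.21 and -1.22 in LSC GFP- cells. All LSC GFP+ values lay below all LSC GFP- values, with a difference of -0.29 (95% interval -0.71 to 0.14) and a limma p of 0.16. A recalculation with the methods' t-test gave a p of 0.027, and the block gave a limma p of 0.0786. The other probe, at mm9 chr6:134875424-134875483, read -1.64, -1.34 and -1.60 against -1.30, -1.77 and -0.91. There the LSC GFP- samples spread over both sides of the LSC GFP+ samples, and the difference of -0.20 had a 95% interval of -0.80 to 0.39 (limma p of 0.458). Without LSC GFP- replicate 3 it was 0.0063.

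Rb1 encodes the retinoblastoma protein, the substrate on which the D cyclin kinases converge. Its probe (mm9 chr14:73595408-73595467, minus strand) is printed 10 times on each array, which gives a measure of the spread between spots of one array. This spread does not cover sorting, amplification or labelling. Array means were -1.16, -1.08 and -0.97 in LSC GFP+ cells and -1.17, -0.996 and -0.94 in LSC GFP- cells. The SD over the 10 spots of an array ran from 0.07 to 0.13, which gives an array mean a standard error of 0.02 to 0.04. The SD between the array means of a population was 0.10 and 0.12. The difference was -0.04 with a 95% interval of -0.46 to 0.39 (limma p of 0.853). With the replicate block the interval was -0.37 to 0.30.

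**Figure D3:**
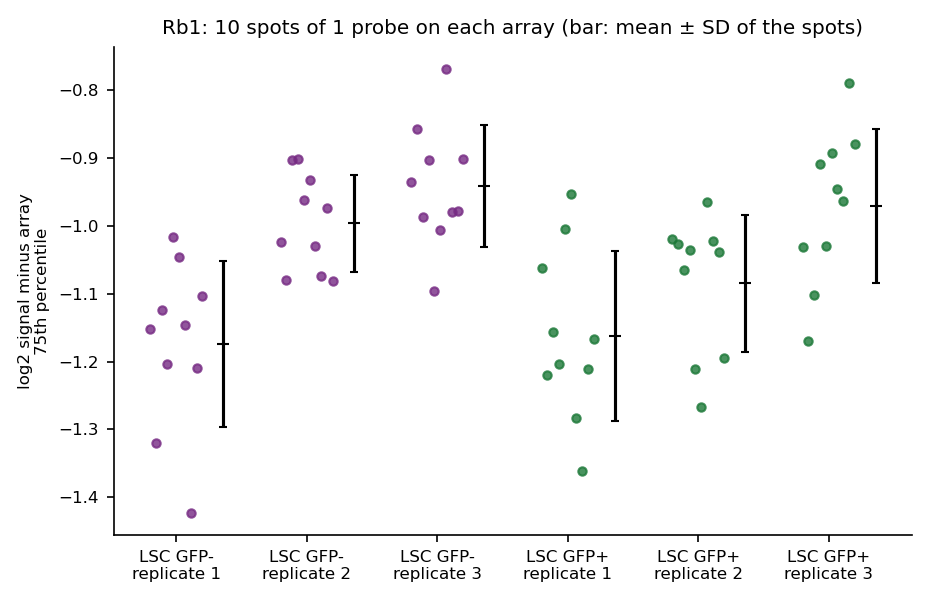
The 10 spots of the Rb1 probe on each array (x axis, sample) as log2 signal minus the array's 75th percentile (y axis), with the mean ± SD of the spots beside them. The spots of all arrays overlap, and the 6 array means lie between -1.17 and -0.94.

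Promoter sequence from RefSeq (GRCm38.p6) was held for 6 of the 10 members, in 7 windows of the 250 bases before a transcription start. Ccnd1, Ccnd2, Ccne2 and Rb1 have no entry in this table. The windows were searched on both strands for the E-box CACGTG, the core bound by Myc-Max and related factors, and for the E2F sequences TTTCCCGC, TTTCGCGC, TTTGCCGC and TTTGGCGC. The Cdk4 and Cdk2 windows are shown as those with the most E-box and E2F matches among the members, and they were picked after the matches had been seen. The Cdk4 window (chr10:127063285-127063534, plus strand) holds the E-box 4 times, in capitals, and the Cdk2 window (chr10:128705052-128705301, minus strand) holds 1 E2F match, in capitals as its reverse complement GCGGGAAA.
Cdk4 promoter: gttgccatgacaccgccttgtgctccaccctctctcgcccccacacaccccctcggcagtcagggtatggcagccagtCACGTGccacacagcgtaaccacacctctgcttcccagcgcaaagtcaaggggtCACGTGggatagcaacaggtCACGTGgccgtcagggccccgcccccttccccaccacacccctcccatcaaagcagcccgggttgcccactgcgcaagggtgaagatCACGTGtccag
Cdk2 promoter: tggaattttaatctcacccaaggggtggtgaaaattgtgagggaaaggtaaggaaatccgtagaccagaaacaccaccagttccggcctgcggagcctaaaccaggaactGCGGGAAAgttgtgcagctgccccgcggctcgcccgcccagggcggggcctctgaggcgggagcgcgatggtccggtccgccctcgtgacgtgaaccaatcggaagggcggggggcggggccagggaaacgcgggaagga
The E-boxes of Cdk4 start 172, 118, 98 and 11 bases before the transcription start, and the E2F letters of Cdk2 start 140 bases before it. An E-box is present in 6.02% of the 32817 windows of all genes and 4 or more E-boxes in 0.0213% of them (7 windows). The E2F sequences are present in 1.86%. Of the other member windows, that of Cdk6 holds 1 E-box and none holds an E2F match. The Sp1 binding sequence GGGCGG was searched as well. It is present in 32.7% of the windows of all genes and in every member window except that of Cdk6.

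Around the members, 37 other regulators of G1 and S were examined at their brightest probe, and 33 of these could be tested. In total 2 were higher and 1 was lower in LSC GFP+ cells at the unadjusted threshold, compared with 3.38% of all genes higher and 4.28% lower, and the lowest adjusted p was 0.408 in limma. The median difference was 0.13, against -0.01 over the brightest probes of all genes.

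Of the CDK inhibitors, 4 of 6 could be tested, and 1 was higher and 1 lower. Cdkn1c encodes p57, an imprinted inhibitor of the Cip/Kip family to which p27 also belongs. It read 1.63, 1.21 and 1.78 in LSC GFP+ cells and 0.70, -0.08 and 1.05 in LSC GFP- cells, with no overlap. The difference of 0.99 ± 0.32 (SE, n = 3 per population) had a limma p of 0.0152 and an adjusted p of 0.408, and the methods' t-test gave a p of 0.058. Cdkn2c encodes p18, an inhibitor of Cdk4 and Cdk6, and read -1.13, -0.24 and -0.78 against -0.24, -0.16 and 0.16. Its difference of -0.64 had a limma p of 0.0451 (adjusted p = 0.612), and the populations overlapped narrowly. This call was lost when any sample but LSC GFP+ replicate 2 was left out, with p from 0.0598 to 0.136 in limma. It was also lost with quantile normalization, median scaling or no filter (limma p-values of 0.0516, 0.115 and 0.0631) and with the methods' t-test (p of 0.09). Cdkn1a (p21) gave 0.21 (limma p of 0.51) and Cdkn2d (p19) -0.02 (limma p of 0.915), whereas Cdkn2a and Cdkn2b were too dim to test.

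None of the 12 tested genes of the Rb relatives, E2F and DP list passed the threshold, and their differences ran from -0.38 (E2f4) to 0.30 (Tfdp2). Rbl1 and Rbl2, which encode the Rb relatives p107 and p130, gave 0.0020 and 0.09. Of the enzymes that degrade or activate G1 cyclins and kinases, 1 of 11 tested was higher. This was Fbxw7, the substrate receptor of the SCF ligase that degrades cyclin E. Its brightest probe read 1.54, 1.80 and 1.54 in LSC GFP+ cells and 1.09, 1.18 and 0.66 in LSC GFP- cells. The populations did not overlap, and the difference of 0.65 ± 0.22 (SE, n = 3 per population) had a limma p of 0.0182 and an adjusted p of 0.434. Both Fbxw7 probes passed, with differences of 0.53 and 0.65. At the brightest probe p became 0.0636 without LSC GFP+ replicate 2 and 0.0662 without LSC GFP- replicate 3 (limma). Skp2, the receptor that targets p27, gave 0.13 (limma p of 0.523). None of the 6 tested genes among the other cyclins and kinases of G1 and S passed, with Ccna2 at 0.27 and Cdk1 at 0.21.

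The list of E2F target genes held 15 genes of replication licensing, DNA synthesis and nucleotide supply, and all could be tested. It is not a full set of E2F targets. Like the other lists, it was chosen with earlier results of these data known. Of the 15, 1 was higher and none was lower, compared with 3.38% of all genes higher and 4.28% lower at their brightest probe. Cdt1, which loads the MCM helicase onto origins, read 0.46, 0.69 and 0.71 in LSC GFP+ cells and -0.15, 0.18 and 0.32 in LSC GFP- cells. Its difference was 0.50 ± 0.21 (SE, n = 3 per population), with a limma p of 0.0425 and an adjusted p of 0.601. The other 14 did not pass, and 14 of the 15 had a positive difference, Tyms at -0.08 being the exception. The median over the list was 0.28 and the highest value that of Cdt1. For comparison, 49.0% of all genes had a positive difference at their brightest probe. With the replicate block 5 of the 15 passed, all higher (Mcm4, Mcm5, Cdt1, Rrm1 and Rrm2), against 6.51% of all genes. The Cdt1 call was lost without LSC GFP+ replicate 2 or 3 or without LSC GFP- replicate 1 or 2, which left no gene of the list past the threshold (p for Cdt1 from 0.0799 to 0.17, limma).

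Of the 10 proliferation markers, 9 were tested and 1 was higher, compared with 3.38% of all genes. Top2a, the topoisomerase of dividing cells, read 0.48, 0.40 and 0.28 in LSC GFP+ cells and -0.06, -0.35 and -0.07 in LSC GFP- cells, a difference of 0.54 (limma p of 0.0217, adjusted p = 0.468). Its p was 0.0532 without LSC GFP+ replicate 2 and 0.0916 without LSC GFP- replicate 2 (limma). Mki67, which encodes the Ki-67 antigen, read 3.63 to 3.94 against 3.45 to 3.57, and its difference of 0.24 did not pass (limma p of 0.243). Of the 9 differences 8 were positive, and the median was 0.24. With the replicate block 3 of the 9 passed, all higher (Top2a, Ccnb1 and Bub1, limma p-values of 0.0139, 0.0181 and 0.037), against 6.51% of all genes.

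**Figure D4:**
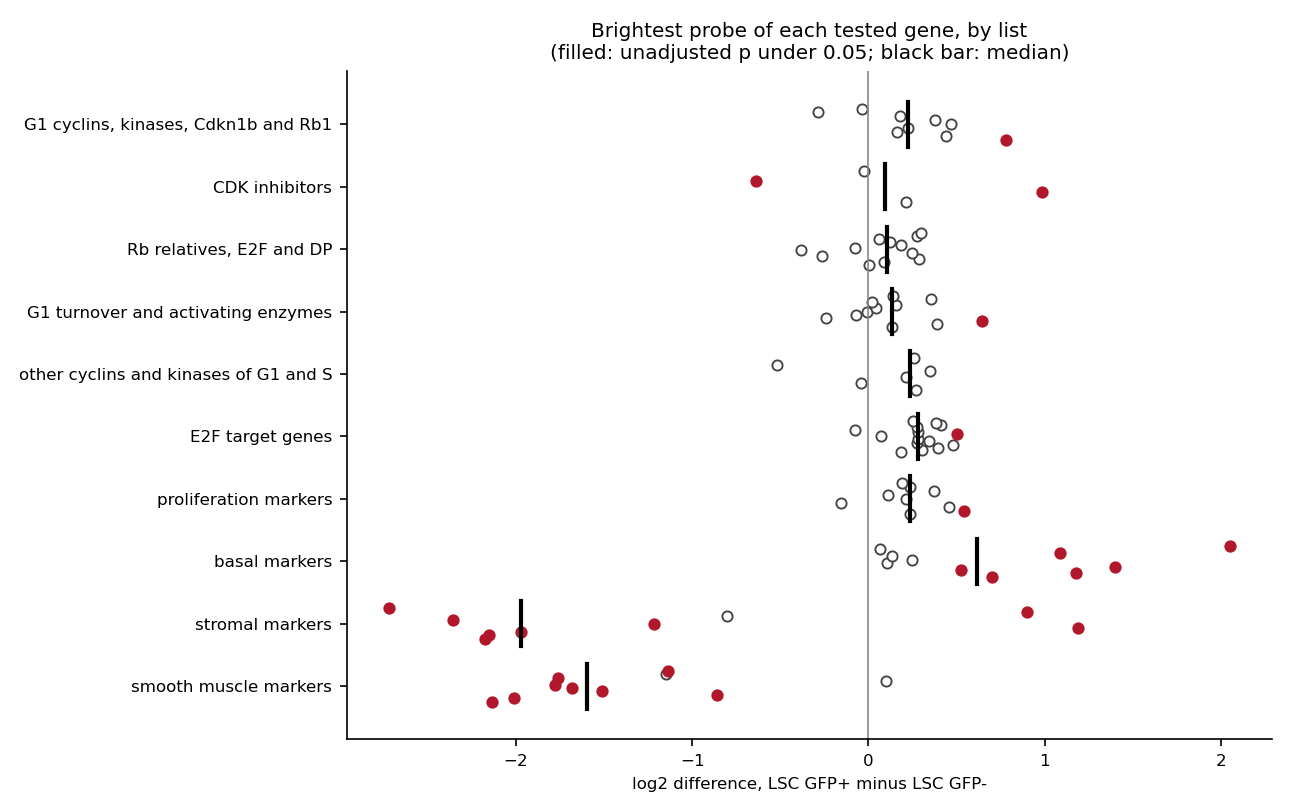
Log2 difference, LSC GFP+ minus LSC GFP- (x axis), at the brightest probe of each tested gene, by list. Filled points passed the unadjusted threshold and black bars are list medians. The medians are 0.22 for the members, 0.28 for E2F targets and 0.24 for proliferation markers, and stromal and smooth muscle markers reach below -2.

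Marker lists of several cell types also differed between the populations. The sort was meant to hold epithelial cells alone. By the study's flow cytometry, all cells of the LSC gate carried the epithelial marker CD24. The GFP-bright vascular smooth muscle cells carried little or no Sca-1 or CD49f. Of the stromal markers 6 of 9 tested were lower and 2 higher in LSC GFP+ cells, and 8 of 10 smooth muscle markers were lower. Among all genes, 4.28% were lower and 3.38% higher at their brightest probe. The mean level over the stromal list was -0.11 to 0.49 in LSC GFP+ samples and 0.79 to 2.19 in LSC GFP- samples, and over the smooth muscle list -0.94 to -0.54 and 0.22 to 1.27. The basal list moved the other way, with 6 of 10 genes higher and list means of 2.91 to 3.01 against 2.15 to 2.24. No defining marker of the stromal, smooth muscle or basal lists except Postn failed the filter on dim signals. Within the LSC GFP- samples, the stromal list mean was 2.19, 0.79 and 1.57 in replicates 1 to 3, and Ccnd1 read 3.33, 3.13 and 3.57 there. With the replicate block the counts of these 3 lists were the same, and 4 of 8 tested glial and neuronal markers were lower, against 0 without it. Under that fit 6.51% of all genes were called higher, and 2982 of all 36993 tested probes were called lower. The part of these cells in the differences of Ccnd1, Ccnd2, Cdk2, Cdk4 and the E2F targets was not tested, and in RNA of sorted populations fewer cells of a type and less RNA per cell cannot be told apart.

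The genes whose brightest probe followed that of Ccnd1 most closely over the 6 arrays were Igfbp4 (Pearson r = 0.997), Hspd1 (0.995), Ralgps2 (0.995), Pdcd11 (0.993) and Pum3 (0.993), out of 15271 named genes above background on all arrays. Their differences between the populations were 1.31, 0.38, 0.58, 0.62 and 0.51. These values describe likeness over 6 arrays that fall into the same populations, and r was above 0.95 for 162 of the genes compared.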

How the data were processed

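RNA of 3 LSC GFP+ and 3 LSC GFP- samples was amplified with the Ovation Pico WTA kit and hybridised to 1-colour Agilent SurePrint G3 mouse arrays. The study calls the 3 samples of each population independent but does not say how many animals stand behind each. Nothing in the labels says that the samples of a population came from separate animals, so p-values measure the spread between these samples, which may be in part technical. The deposited values are Cy3 intensities per spot, background-corrected as gProcessedSignal by Feature Extraction, version 11.0.1.1 per the file headers and 10.7.3.1 per the labels. The flags for background and outlier spots in the deposited files were also used.

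From these intensities log2 was taken and the 75th percentile of each array subtracted. Outlier spots (123 to 154 per array) were left out and spots of one probe averaged. A probe was kept where all 3 arrays of 1 or both populations read it as well above background (36993 of 55681) and compared with limma 3.58.1 (lmFit, eBayes, R 4.3.3), with Benjamini-Hochberg adjustment over all of them. The threshold was an unadjusted p of 0.05, that of the study's methods, with adjusted p beside it. The script was tested on simulated data. Gene symbols of the other lists were taken from the array design, and the brightest probe stood for a gene. Shares of all genes are over every distinct name on the array with a tested brightest probe. Names of noncoding RNAs and accessions were not left out of them, and 26582 of the 55681 probes matched a symbol table by accession.

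Replicate numbers come from the sample titles. Deviations from the population means correlated between samples of the same number (r = 0.43, 0.28 and 0.67), which by the rule used here makes them pairs. Between samples of different numbers r ran from -0.55 to 0.22. The highest of these, LSC GFP+ replicate 1 with LSC GFP- replicate 2, came close to the 0.28 of the samples numbered 2. Each population was centred on its own mean, so positive values for the same number in part force lower ones between different numbers. The fit with the block is given where it changed the calls of a list or member. Every probe of the members is reported. Of the other lists, genes past the threshold are named, with at most 4 per direction, beside values for selected genes that did not pass. The members, lists and tests were chosen with earlier results of these data known, and the genes named without passing were chosen after their values were seen. Alternatives were scaling by the array median, quantile normalization, normexp correction, the methods' t-test, the series value table, a stricter and no filter on dim probes, outlier spots kept, a variance trend with intensity, the mean over a gene's probes and each array left out.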

Additional observations from a re-analysis of the deposited data

How the results depend on the processing

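Ccnd1 stayed past the unadjusted threshold in limma under every alternative tried, with a log2 difference of 0.68 to 0.89. The count of member probes past it was 1 and became 2 with quantile normalization, median scaling or the filter on all 6 arrays, 3 with normexp or the intensity trend, 4 with the methods' t-test and 6 with the replicate block (1 to 2 with an array left out). At the brightest probe the count of member genes, 1, became 2, 2 and 2, 3 and 3, and 4 under the same settings and 4 with the block (1 to 2 with an array left out). Of the other G1 and S regulators 3 passed, 4 with normexp, 2 with quantile normalization, median scaling or no filter, 1 with the methods' t-test and 2 to 3 with an array left out. The count of E2F targets, 1, became 0 with median scaling or no filter, 2 with quantile normalization, 3 with the intensity trend, 4 with the methods' t-test, 5 with normexp and 5 with the block (0 to 3 with an array left out). Differences turned sign for the dimmer Cdkn1b probe (0.0063 without LSC GFP- replicate 3), for Ccnd3 (-0.0067 without LSC GFP+ replicate 3, with a range of -0.0067 to 0.36 when an array was left out) and for Rb1 (0.034 with median scaling, and -0.10 to 0.0126 when an array was left out, positive without LSC GFP+ replicate 1 or LSC GFP- replicate 3). The cause was not tested. In either direction, 2924 of all 36993 tested probes passed the unadjusted threshold in the main fit. The count was 2766 with normexp, 3273 with quantile normalization, 2769 with median scaling and 2914 with the intensity trend. It was 5477 with the block and 2798 with the methods' t-test, where 0 passed after Benjamini-Hochberg adjustment. With the filter on all 6 arrays it was 2503 of 33850, and with no filter 3336 of 55657. With an array left out it ran from 2076 to 4049. The 11 cyclin and kinase differences were positive under every alternative except without LSC GFP+ replicate 3, where 10 were. Part of this was fixed beforehand. The intensity trend, the replicate block, a changed filter and the t-test keep each difference as in the main fit. The sign of a difference could therefore not turn under those settings. With 3 samples per population, the median standard error over all tested probes was 0.25.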
